A study of Mus musculus with 24 samples.

Results

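The hearts of adult male mice that carried a mutant thyroid hormone receptor and had been exposed to T3 before birth were compared with hearts of untreated wild-type mice, to see which differences between mutant and wild-type hearts remained and which arose after maternal T3. The comparison took 12 of the 24 arrays of the series, 6 from T3-exposed TRα1+/m offspring and 6 from wild-type offspring of dams without T3, chosen by their labels. The TRα1+/m mice were heterozygous for the R384C mutation of TRα1, the receptor encoded by Thra, and were bred from wild-type dams and heterozygous sires on the C57/BL6NCr strain. Dams of the T3-exposed group drank water with 0.5 mg/L T3 and 0.01% BSA (bovine serum albumin) between embryonic days 12.5 and 18.5 by the labels (the study's text ends the exposure earlier), and dams of the untreated group drank water with 0.01% BSA alone. The offspring were exposed through the dam alone and received no T3 after birth. All mice were housed at 22 °C and their whole hearts were taken at 4 to 5 months of age. The other 12 arrays came from 6 untreated TRα1+/m and 6 T3-exposed wild-type mice of the same age and strain, and entered the fit and the side-by-side values. Litters are not given in the labels, so any siblings within a group were counted as separate mice. Genotype and maternal T3 differ together between the 2 groups compared, and their parts in a difference cannot be told apart within it.

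T3 (triiodothyronine) enters cells through membrane transporters and binds the nuclear receptors TRα1 and TRβ, which sit on DNA near their target genes and repress without hormone and activate with it. TRα1 is the main receptor of heart muscle, where hormone raises the fast myosin Myh6, the calcium pump Atp2a2 and pacemaker channels and lowers the slow myosin Myh7. The R384C receptor binds T3 weakly and, at ordinary hormone levels, blocks the normal receptor beside it. Before birth and while T3 is low the mouse heart uses Myh7 and other fetal isoforms, and the rise of T3 around birth switches it to the adult set.

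Thyroid hormone receptors bind DNA at the hexamer AGGTCA, most often at a pair of copies in the same direction 4 bases apart. The promoters of Hcn2, a pacemaker channel, and Ogdhl, an enzyme related to 2-oxoglutarate dehydrogenase, are shown because both genes fell in the mutants with and without maternal T3 and both windows hold the hexamer. The windows run from 250 bases before to 50 bases after the start of the gene in RefSeq (GRCm38.p6), with each AGGTCA or its other strand TGACCT in capitals.
Hcn2, chr10:79716384-79716683, plus strand: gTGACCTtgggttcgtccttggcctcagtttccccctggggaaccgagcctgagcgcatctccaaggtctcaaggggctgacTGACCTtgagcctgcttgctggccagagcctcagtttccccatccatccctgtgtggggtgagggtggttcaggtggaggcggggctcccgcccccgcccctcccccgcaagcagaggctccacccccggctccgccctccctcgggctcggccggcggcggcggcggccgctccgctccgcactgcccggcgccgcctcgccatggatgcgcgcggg
Ogdhl, chr14:32321769-32322068, plus strand: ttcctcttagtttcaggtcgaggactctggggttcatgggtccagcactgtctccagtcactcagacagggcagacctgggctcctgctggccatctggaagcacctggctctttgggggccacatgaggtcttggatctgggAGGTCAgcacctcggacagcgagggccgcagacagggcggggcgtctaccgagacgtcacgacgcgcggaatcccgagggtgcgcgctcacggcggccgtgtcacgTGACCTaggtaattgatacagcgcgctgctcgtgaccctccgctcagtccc
Each of the 2 windows holds 2 copies. The hexamer was found on either strand in 16.3% of all 32851 windows and in 15.9% of the 14051 genes tested that had one. It was present in 43 of 323 genes that rose (13.3%) and in 62 of 288 genes that fell (21.5%). The exact pair with 4 bases between its copies was in 5 of all windows (0.0152%) and in none of the genes tested. Of the 99 genes named by rule, 77 had a window and 18 of these held the hexamer. These letter matches are a description of the windows and do not mark bound sites.

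A second set of windows is shown because it belongs to the genes that differed most clearly between T3-exposed and untreated mutants, a group of Zfp (zinc finger protein) genes and Gm-numbered neighbours on chromosome 2. The capitals mark 91 bases that are the same in all 6 genes of the group that had a window.
Zfp965, chr2:175469872-175470022, plus strand: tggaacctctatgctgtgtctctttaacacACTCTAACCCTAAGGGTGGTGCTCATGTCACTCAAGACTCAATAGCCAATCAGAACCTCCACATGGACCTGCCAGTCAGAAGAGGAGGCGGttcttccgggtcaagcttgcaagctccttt
Gm14288, chr2:175801059-175801209, minus strand: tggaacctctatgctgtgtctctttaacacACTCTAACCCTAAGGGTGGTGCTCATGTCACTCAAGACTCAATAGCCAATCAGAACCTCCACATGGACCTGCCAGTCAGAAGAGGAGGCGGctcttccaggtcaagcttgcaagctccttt
Gm14434, chr2:176486770-176486920, minus strand: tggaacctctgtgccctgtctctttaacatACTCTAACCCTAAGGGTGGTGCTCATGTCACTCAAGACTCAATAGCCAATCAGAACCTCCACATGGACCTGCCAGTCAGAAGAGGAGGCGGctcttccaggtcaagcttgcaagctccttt
Zfp970, chr2:177464598-177464748, plus strand: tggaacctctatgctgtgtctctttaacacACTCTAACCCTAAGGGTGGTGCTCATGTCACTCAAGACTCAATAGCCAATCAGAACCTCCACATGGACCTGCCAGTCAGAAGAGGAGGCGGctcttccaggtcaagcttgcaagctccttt
The lines differ at few places outside the capitals. The 91 bases occurred in 22 of 32851 windows (0.067%), which belong to 19 genes, all of them on chromosome 2.

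Expression was measured on arrays with 1 colour, as log2 signal per probe set after RMA (robust multi-array average, a background correction and scaling that puts all arrays on a common scale). A step of 1 is a doubling. Signals ran from 1.78 to 19.93. After control probe sets were left out and the brightest probe set was kept per gene, 19801 genes had a mean above 4 in at least 1 group of mice and were tested. Arrays correlated at r of 0.969 to 0.990 over the 276 pairs, and no pair was identical. Principal component analysis separated 5 mice from the others on its leading axis, which carried 17.5% of all variance. Mouse 17 of the T3-exposed mutants scored 55.7 and mouse 16 nearly as much, while the other 4 mice of the group scored -6.6 to -2.6 and all untreated wild-type mice -22.5 to -9.2. The other 3 were mice 14 and 15 of the T3-exposed wild types and mouse 4 of the untreated mutants. All 5 have numbers below 20, as do mice 2, 5, 6 and 13, which did not stand apart. In the 2 groups compared, that range holds mice 16 and 17 of the T3-exposed mutants and mouse 2 of the untreated wild types. The labels do not say what the number stands for. The positive control probe sets averaged 9.775 to 9.885 in T3-exposed mutants and 9.706 to 9.773 in untreated wild types. The groups thus differed slightly in this array measure too, and its part in the results was not tested. The negative control probe sets averaged 5.762 to 6.045 in T3-exposed mutants and 5.649 to 5.861 in untreated wild types. The filter of 4 lies below these means. Values of Tnni1 in wild types, Kcne1 in wild types, and Hcn2 and Rtn4r in T3-exposed mutants lay near or under them, so the sizes of those changes are less certain. Mice are named by the number in their labels, and results that rest on mice 16 and 17 are given with and without them.

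The labelled tissue bore the markers of whole heart. Myh6 ranged from 19.53 to 19.69 in T3-exposed mutants and from 19.68 to 19.81 in untreated wild types, at the top of the scale, where differences are compressed. Tnnt2, cardiac troponin T, lay between 18.91 and 19.37 over the 12 mice. The atrial light chain Myl7 ran from 10.49 to 14.27 in untreated wild types and from 13.06 to 15.27 in T3-exposed mutants (change 0.91, adjusted p = 0.399), and the part of atrial tissue in the results was not tested. Markers of lung (Sftpc, at most 5.60), thymus (Ptcra, at most 6.44) and skeletal muscle (Myh4, at most 5.07) were low in every mouse. The fat hormone Adipoq ran from 3.70 to 8.06 in untreated wild types and from 4.99 to 10.87 in T3-exposed mutants. In whole hearts, fewer cells of a type and less RNA per cell cannot be told apart.

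Of 19801 genes, 460 (2.32%) were higher and 422 (2.13%) lower in T3-exposed TRα1+/m than in untreated wild-type hearts at an adjusted p under 0.05 (limma with Benjamini-Hochberg adjustment, 6 mice per group, used for every adjusted p here). The median size of change was 0.80 among genes that rose and 0.82 among those that fell, on the log2 scale. At least 2-fold changes were seen in 109 of the risen and 108 of the fallen genes, and at least 4-fold changes in 6 and 3. The values of the 2 groups did not overlap for 256 of the risen and 236 of the fallen genes, against 685 of all genes tested (3.46%). Without mice 16 and 17, 377 of the 882 genes still passed, 193 higher and 184 lower, and all 882 kept their sign. The 882 were selected in a fit that held the other mutants and the same wild types, so the kept signs are no support. Without mouse 16 alone, 296 genes were higher, the lowest count of all fits without 1 mouse. Leaving out 1 untreated wild-type mouse gave 311 (mouse 2) to 429 (mouse 37). Leaving out 1 of the other T3-exposed mutants gave 341 (mouse 17) to 499 (mouse 49).

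Untreated TRα1+/m hearts were compared with the same 6 untreated wild-type mice, so the 2 comparisons share their controls. In that comparison 112 genes (0.566%) were higher and 209 (1.06%) lower. Set side by side, 259 genes passed in both with the same sign, 103 higher and 156 lower, and these are called remaining. Another 623 genes, 357 higher and 266 lower, passed in T3-exposed mutants alone and are called newly passing. A further 62 genes, 9 higher and 53 lower, passed in untreated mutants alone and are called no longer passing. No gene passed in both with opposite signs. A gene that passes in only 1 of the 2 comparisons need not differ between the mutant groups, so the mutants were also compared with each other. There 2 genes (0.0101%) were higher and 15 (0.0758%) lower in T3-exposed than in untreated mutants, of which 13 were newly passing, 1 was no longer passing and none was remaining. Against the 6 T3-exposed wild types, the same T3-exposed mutants had 224 genes (1.13%) higher and 328 (1.66%) lower. Among them were 193 of the 259 remaining and 166 of the 623 newly passing genes. Remaining genes had already passed in untreated mutants and newly passing genes had missed there, so the 2 shares follow in part from how the classes were formed.

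The classes were also read without mice 16 and 17. Without both, 199 of the 259 remaining and 178 of the 623 newly passing genes still passed against untreated wild types. Remaining genes had also passed in untreated mutants, which hold neither mouse, and their changes were larger. These shares therefore do not compare how far each class rests on mice 16 and 17. The median size of change was 0.95 among remaining genes in T3-exposed mutants and 0.93 in untreated mutants. Newly passing genes had a median size of 0.76 in T3-exposed and 0.42 in untreated mutants. A smaller size in untreated mutants follows from the definition of this class, whose genes had to miss the threshold there. Between the mutant groups, 13 of the 623 passed. When the classes were formed anew, 188 genes were newly passing and 226 no longer passing without both mice. The newly passing count was 367 without mouse 16 alone and 383 without mouse 17 alone. The no longer passing count was 120 without either of them and 40 without mouse 6 of the untreated mutants. Of the 78 named genes that passed, 20 did not pass without both mice, namely Atg2a, B3galt2, Calm2, Elovl1, Fabp4, Fads1, Flt1, Hcn4, Ifi27, Kcnd2, Kcnk6, Ldhd, Msln, Notch3, Pdp2, Ptgds, Rgs2, Rpl4, Rpl6 and Thrb.

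The strongest of all differences was that of Cep128, which encodes a centriole protein, on chromosome 12. Its signal was 8.95 to 9.34 (median 9.21) in untreated wild types and 12.48 to 13.10 (median 12.56) in T3-exposed mutants. The lowest mutant lay far above the highest wild type. The gene was 11.4-fold higher (log2 change 3.51, SE 0.16, adjusted p = 2.84e-14), and in untreated mutants the change was 3.14.

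Slc16a7, a monocarboxylate transporter that carries lactate and pyruvate, followed. It measured 6.78 to 8.44 (median 8.0) in untreated wild types and 11.03 to 11.48 (median 11.16) in T3-exposed mutants. The mutants were tightly grouped and all above the wild types. The log2 change was 3.40 (SE 0.26, adjusted p = 3.04e-09), beside 2.79 in untreated mutants.

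Kcne1, an accessory subunit that slows the gating of the potassium channel Kcnq1 and is itself lowered by thyroid hormone, came next. Untreated wild types held 5.37 to 6.48 (median 5.68) and T3-exposed mutants 7.41 to 9.32 (median 8.53). No mouse of either group lay within the range of the other. It rose by 2.73 (SE 0.26, adjusted p = 1.53e-07), and by 2.45 in untreated mutants.

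Myh7, the slow and fetal myosin heavy chain, measured 15.95 to 17.02 (median 16.20) in untreated wild types and 17.66 to 18.60 (median 17.94) in T3-exposed mutants. All mutants again lay above all wild types. The rise was 1.63 (SE 0.20, adjusted p = 2.35e-05), 3.10-fold. In untreated mutants Myh7 held 18.26 to 19.33 (median 18.39), a change of 2.19, and 1 of 6 T3-exposed mutants reached into that range. The difference between the mutant groups, -0.56, did not pass (adjusted p = 0.476).

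Other remaining rises were those of Postn, a matrix protein of activated fibroblasts (2.29, adjusted p = 5.51e-05), and Scd4, a desaturase that makes monounsaturated fatty acids (1.99, adjusted p = 0.00230). Igf2, a fetal growth factor, held 12.22 to 13.14 in untreated wild types and 13.59 to 14.97 in T3-exposed mutants and rose by 1.64 (adjusted p = 0.00157). Tnni1, the slow skeletal troponin I that the fetal heart uses, rose by 1.21 (adjusted p = 0.00310) from a low level of 3.20 to 4.07. Its mean in untreated wild types (3.64) lay below the filter of 4, so it was tested through the mutant groups, and with no filter its adjusted p was 0.00328. Sfrp2, a secreted inhibitor of Wnt signals, rose by 1.49 and Fstl4, a follistatin-like protein, by 1.70.

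Among falls, Ogdhl, the enzyme whose promoter is printed above, led. Its signal was 12.04 to 12.86 (median 12.45) in untreated wild types and 9.14 to 10.64 (median 10.08) in T3-exposed mutants. The groups were separated by more than a unit. It fell by 2.36 (SE 0.21, adjusted p = 6.94e-08), 5.14-fold, and by 1.78 in untreated mutants.

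Lrtm1, a membrane protein with leucine-rich repeats, was nearly as far down. It held 15.93 to 16.51 (median 16.32) in untreated wild types and 12.55 to 14.76 (median 14.22) in T3-exposed mutants. Mice 17 and 16 were the lowest mutants, and the other 4 also lay below every wild type. It fell by 2.35 (SE 0.25, adjusted p = 1.65e-06), with a change of -1.87 without mice 16 and 17.

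The next remaining falls were Ano5, an anoctamin whose loss causes muscular dystrophy (-2.03), Tmem150c (-1.99), Camk2b, a subunit of calcium/calmodulin-dependent kinase II (-1.91), Egln3, an oxygen-sensing prolyl hydroxylase (-1.82), Plaat1, a phospholipase (-1.79), and the chemokine Cxcl14 (-1.70). Lrp11, Cmah, Pla2g2d and Apobec1, an enzyme that edits C to U in RNA, fell by 1.56 to 1.68. Chosen after their values were seen, for their low p, were Fndc5, the precursor of the muscle peptide irisin, which fell by 1.44 (adjusted p = 9.05e-09), and Rtn4, which encodes the neurite growth inhibitor Nogo and rose by 1.23 (adjusted p = 4.59e-06). None of these genes passed between T3-exposed and untreated mutants.

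**Figure D1:**
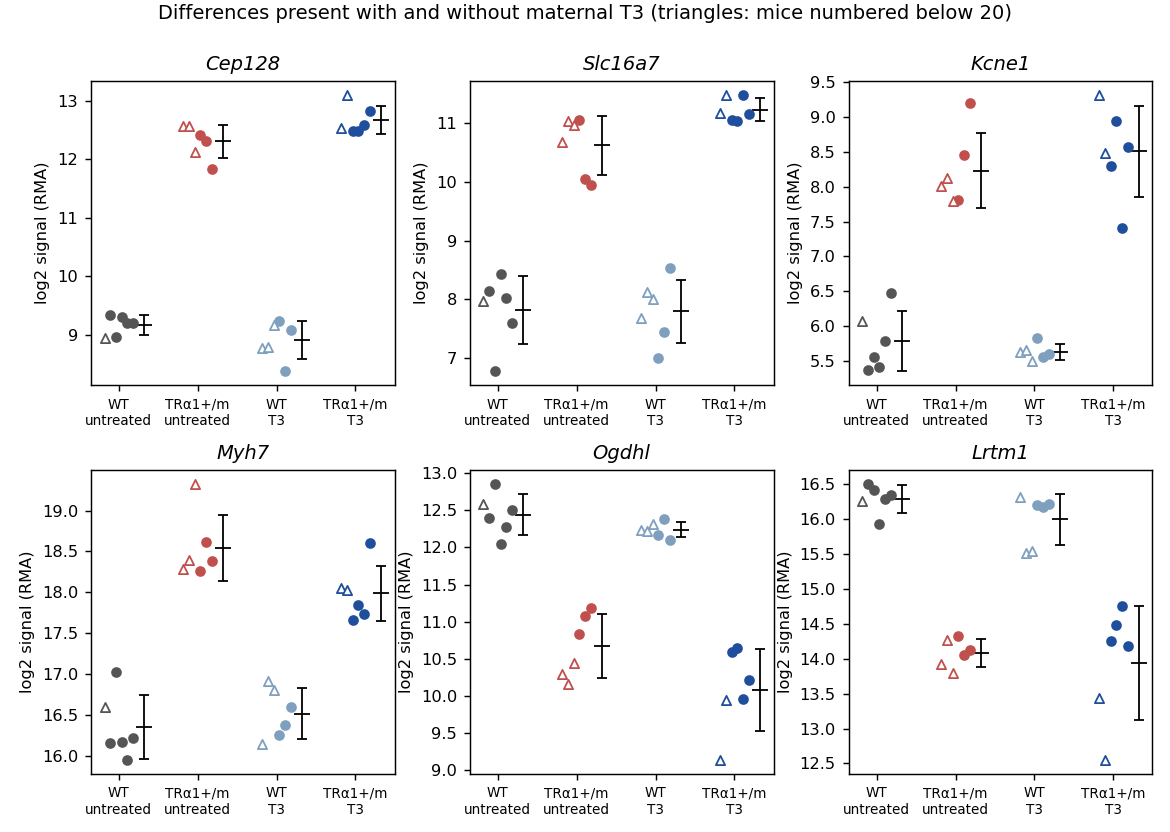
Log2 signal of 6 genes in each mouse of the 4 groups (6 mice each), with the group mean and SD beside the points. Triangles are mice with a number below 20, circles mice with a number above 30. In all 6 genes the T3-exposed TRα1+/m mice lie beyond the untreated wild-type mice, and Cep128 reaches 12.48 to 13.10 against 8.95 to 9.34.

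Genes of thyroid hormone signalling were read next. Thra, which encodes the mutated receptor, measured 11.47 to 12.04 (median 11.71) in untreated wild types and 12.18 to 12.65 (median 12.40) in T3-exposed mutants. The groups did not overlap. It rose by 0.67 (SE 0.13, adjusted p = 0.00250), beside 0.58 in untreated mutants, and the array does not tell the mutant from the normal allele. Thrb, the gene of TRβ, held 9.62 to 10.18 in untreated wild types and 8.82 to 9.40 in T3-exposed mutants and fell by 0.71 (adjusted p = 0.0283). Without mice 16 and 17 Thrb did not pass (-0.56, adjusted p = 0.193). Within 1 Mb of Thra, 5 of 62 genes tested passed (8.06%), but within 2 Mb the share was 5.43%, within 5 Mb 5.9% and within 20 Mb 4.53%, and over the autosomes the share ran from 3.36% (chromosome 13) to 5.79% (chromosome 12).

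Of 30 genes tested from a list of thyroid hormone signalling and cardiac T3 response, 4 rose (Thra, Myh7, Kcne1, Tnni1) and 5 fell (Thrb, Hcn2, Hcn4, Kcnd2, Acta1), where 2.32% of all genes rose and 2.13% fell. Tnni1 entered through its high groups, and the genes were listed with earlier results known. The list's median change was 0.07, beside -0.03 over all genes tested. Acta1, the skeletal actin that fetal and stressed hearts also use, fell by 1.45 (adjusted p = 0.00164), and by 2.22 against T3-exposed wild types. Myh6 and Atp2a2, which T3 activates, changed by -0.09 and -0.00, but Atp2a2 lay at 19.91 to 19.93 in all 12 mice, the ceiling of the array, where a change cannot be seen.

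Pacemaker and rhythm genes set the rate and shape of the heartbeat. Hcn2, the pacemaker channel printed above, measured 6.97 to 7.60 (median 7.17) in untreated wild types and 5.84 to 6.50 (median 6.18) in T3-exposed mutants. Every mutant was below every wild type. It fell by 1.10 (SE 0.18, adjusted p = 4.76e-04), 1.37 in untreated mutants, and by 1.13 without mice 16 and 17.

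Hcn4, the main channel of the sinus node pacemaker current, held 8.63 to 9.28 (median 8.83) in untreated wild types and 7.41 to 8.58 (median 8.11) in T3-exposed mutants. The groups did not overlap, with the gap small and mice 17 and 16 lowest. The fall of 0.81 (SE 0.19) passed (adjusted p = 0.0123), while in untreated mutants -0.49 did not (adjusted p = 0.272). The difference between the mutant groups was -0.32 (adjusted p = 0.673), and without mice 16 and 17 the change against wild type was -0.58 (adjusted p = 0.132).

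Scn4b, a sodium channel beta subunit, fell by 1.10 (adjusted p = 0.00329) from 10.18 to 10.99 in untreated wild types to 8.76 to 10.07. It did not pass in mice with numbers above 30 alone. Kcnd2, the pore of a transient outward potassium channel, fell by 0.67 (adjusted p = 0.0300), Kcna1 by 1.15 and Kcnk6, a two-pore channel, by 0.80 (adjusted p = 0.0305). Kcnd2 and Kcnk6 did not pass without mice 16 and 17 (adjusted p = 0.0701 and 0.116). Of 57 heart rate genes tested, 4 rose and 8 fell (median -0.14), and of 66 potassium channel genes, 1 rose and 3 fell (median -0.05). Over all genes tested 2.32% rose and 2.13% fell, so the potassium channel counts lay near the background. Without mice 16 and 17 the heart rate list held 1 rise and 6 falls.

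Ryr2, the channel that releases calcium for each contraction, lay at 15.91 to 16.28 in untreated wild types and 15.93 to 16.46 in T3-exposed mutants. The groups overlapped almost wholly. The change was 0.09 with a 95% confidence interval from -0.16 to 0.34 (adjusted p = 0.746), and -0.20 in untreated mutants. Kcnh2, the pore of the rapid delayed rectifier (0.15), Kcna5, an ultrarapid rectifier (-0.39), Kcnj2, an inward rectifier (0.10), Chrm2, the muscarinic receptor through which the vagus slows the heart (-0.70, adjusted p = 0.169), and Pkp2, a desmosome protein (0.07), did not pass either. In calcium handling, 1 of 38 genes rose (Calm2, a calmodulin gene) and 4 fell, among them Hrc and Casq1, which bind calcium in the sarcoplasmic reticulum (-0.46 and -0.81).

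**Figure D2:**
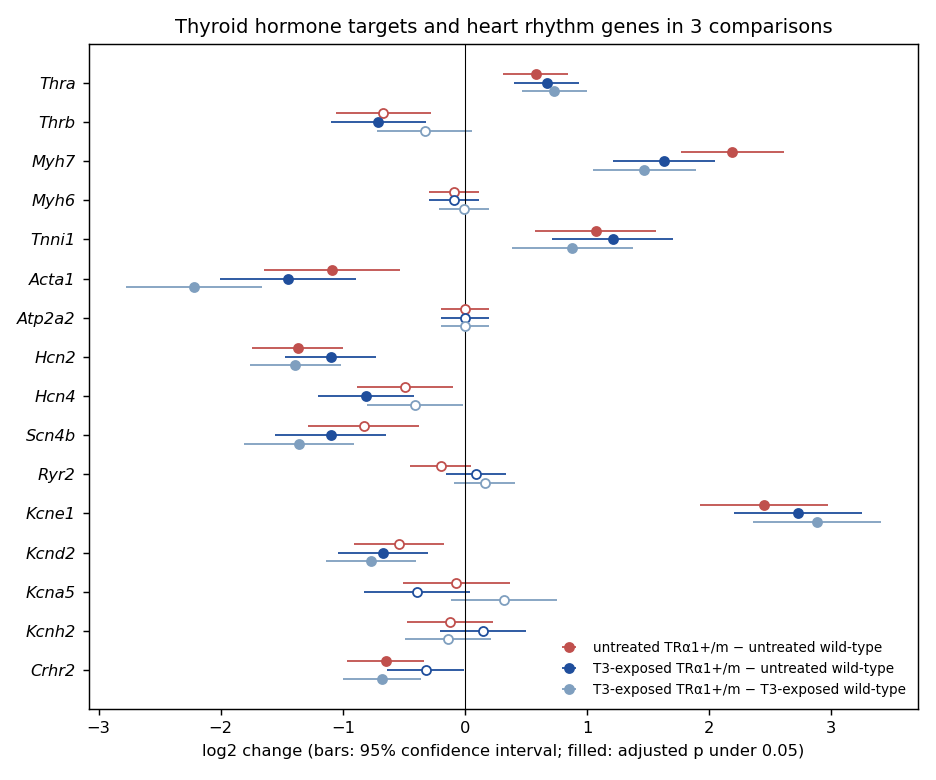
Log2 change of 16 thyroid hormone targets and rhythm genes in 3 comparisons, untreated TRα1+/m and T3-exposed TRα1+/m against untreated wild types and T3-exposed TRα1+/m against T3-exposed wild types (6 mice per group). Points are limma estimates with 95% confidence intervals, filled where the adjusted p is under 0.05, and the first 2 comparisons share their controls. Hcn2 lies at -1.37, -1.10 and -1.39, and Ryr2 at -0.20, 0.09 and 0.16.

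Among newly passing genes, those with the clearest difference between T3-exposed and untreated mutants were the chromosome 2 zinc finger genes whose windows are printed above. Zfp965 measured 14.54 to 15.78 (median 15.37) in untreated wild types and 13.54 to 14.46 (median 14.18) in T3-exposed mutants. All T3-exposed mutants lay below all untreated wild types. It fell by 1.13 (SE 0.22, adjusted p = 0.00254), while the change in untreated mutants was 0.06, and T3-exposed mutants were lower than untreated mutants by -1.19 (adjusted p = 0.0345).

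Gm14327, a transcribed pseudogene that had no promoter window, gave -1.20 against untreated wild types (adjusted p = 0.00108), -0.02 in untreated mutants and -1.18 between the mutants. Zfp970 gave -1.17, Gm14288 -1.08, Gm14434 -0.84 and Gm14295 -0.76 against untreated wild types, and -1.13, -1.10, -1.18 and -1.02 between the mutants. Gm14305 passed between the mutants (-1.19) but not against untreated wild types (-0.78, adjusted p = 0.0501). Of 19 genes with the 91 bases, 11 were tested. The 91 bases were found from the 6 genes with a window that passed between the mutants, which are among the 11, so their changes are a description and no support. Changes against untreated wild types ran from -1.17 to -0.73 with a median of -0.84, and 8 of the 11 passed, among them 5 of the 6. These copies are nearly alike, some of their probe sets had identical values in every mouse, and the array cannot be trusted to separate them, so they are not 11 independent measurements. Without mice 16 and 17, none of the named genes of the group passed between the mutants (adjusted p from 0.0756 to 0.144), with 4 mice against 6. The count of 15 genes lower in T3-exposed than in untreated mutants also depended on single mice. It fell to 0 without any 1 of mice 17, 49, 50, 51 and 55 of the T3-exposed or 5, 6, 52, 53 and 54 of the untreated mutants, and was 21 without mouse 16 and 37 without mouse 4.

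Rtn4r, the receptor of Nogo on neurons, was newly passing as well. It held 6.51 to 7.33 (median 6.87) in untreated wild types and 5.26 to 6.08 (median 5.75) in T3-exposed mutants. The groups were clearly apart, and untreated mutants differed from wild types by only -0.22. It fell by 1.15 (SE 0.17, adjusted p = 1.10e-04), and the difference between the mutants was -0.93 (adjusted p = 0.0345, and 0.120 without mice 16 and 17). Phxr4, on chromosome 9, was the named gene that passed between the mutants in the other direction (1.09, adjusted p = 0.0345, and 0.144 without mice 16 and 17).

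Nppb, the gene of the natriuretic peptide BNP that stretched heart muscle releases, had the largest newly passing fall. Untreated wild types ranged widely, from 9.52 to 11.82 (median 10.68), and T3-exposed mutants from 7.99 to 9.62 (median 9.06). The top mutant slightly exceeded the lowest wild type. It fell by 1.88 (SE 0.35, adjusted p = 0.00157), beside -0.55 in untreated mutants (adjusted p = 0.607) and -2.46 against T3-exposed wild types (adjusted p = 8.56e-05). The difference between the mutants was -1.33 and did not pass (adjusted p = 0.188). In mice with numbers above 30 alone, the fall of Nppb against untreated wild types did not pass.

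Lgals4, a galectin, had the largest newly passing rise. It held 6.77 to 8.12 (median 7.02) in untreated wild types and 8.29 to 11.04 (median 8.97) in T3-exposed mutants. The groups did not overlap, though mouse 39 stood above the other wild types. The rise was 2.12 (SE 0.36, adjusted p = 7.42e-04), beside 1.31 in untreated mutants.

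Clk1, a kinase of splicing factors, rose by 1.59 (adjusted p = 6.57e-04), Ubxn10, a cilium protein, by 1.45 and Ptgds, a prostaglandin synthase, by 1.83 (adjusted p = 0.0433). Ptgds did not pass without mice 16 and 17 (1.10, adjusted p = 0.334). B3galt2, a galactosyltransferase, fell by 1.63 and Lgi1, a secreted protein of synapses, by 1.56 (adjusted p = 2.05e-04). The interaction of genotype and maternal T3, the test of whether T3 shifted mutants and wild types unequally, passed for 0 of 19801 genes by limma, with 830 at an unadjusted p under 0.05 and a smallest adjusted p of 0.127.

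**Figure D3:**
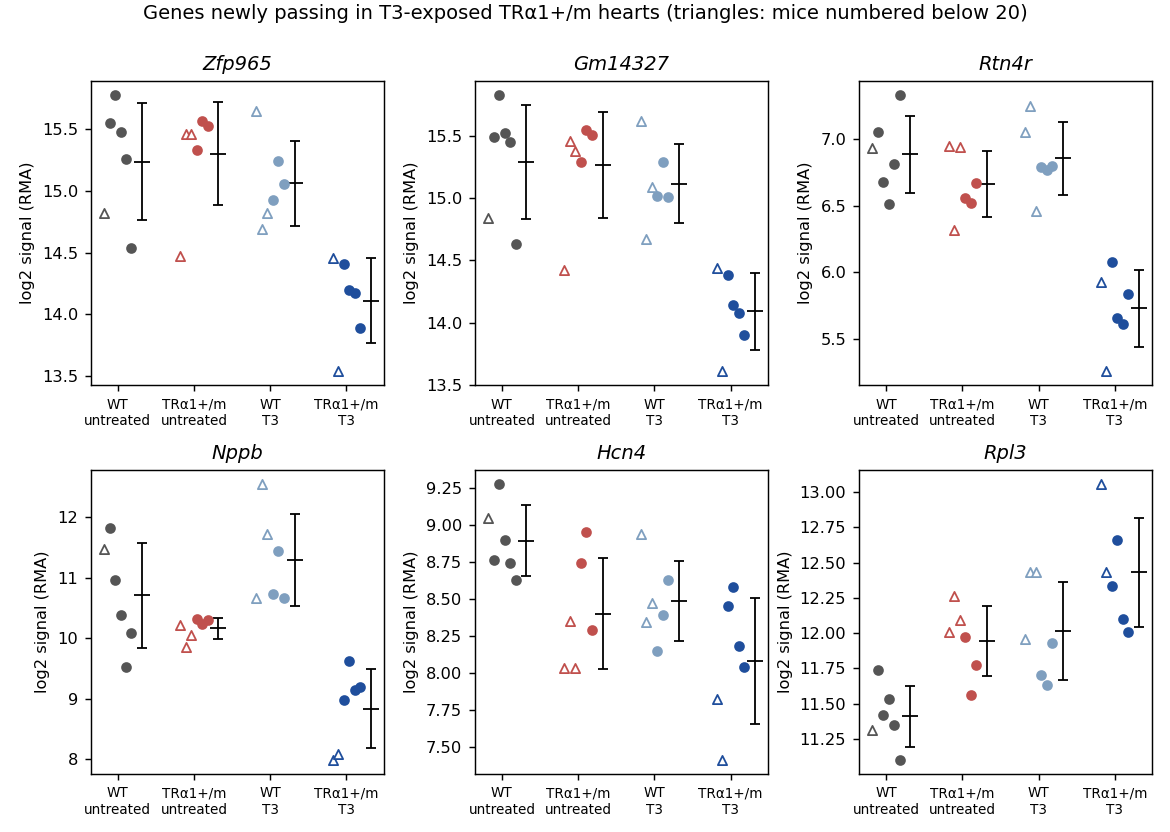
Log2 signal of 6 newly passing genes in each mouse of the 4 groups (6 mice each), with the group mean and SD beside the points. Triangles are mice with a number below 20, circles mice with a number above 30. Zfp965, Gm14327 and Rtn4r are low in T3-exposed TRα1+/m mice alone (Zfp965 13.54 to 14.46), while for Hcn4 and Rpl3 the mean of untreated TRα1+/m mice lies between the 2 groups compared.

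Genes that no longer passed were named after their values were seen. Of the 62, 53 were lower in untreated mutants. Without mice 16 and 17, 3 of the 62 passed against untreated wild types, and the median size of change was 0.43, beside 0.46 with them. Csf1r, the receptor of a macrophage growth factor, changed by -1.06 in untreated mutants (adjusted p = 0.00507) and by -0.46 in T3-exposed mutants (adjusted p = 0.230). Cd180, a surface receptor of B cells and macrophages, gave -1.30 and -0.67, and Cybb, the oxidase subunit of phagocytes, -1.21 and -0.62. Gbp2, an interferon-induced GTPase, gave -0.96 and -0.12. Mhrt, a long RNA antisense to Myh7, gave -0.71 and -0.22, and its probes were not checked against those of Myh7. T3-exposed mutants were uneven in immune cell markers. The mean level of that list was 7.95 in mouse 16, 7.31 in mouse 55 and 6.71 to 6.94 in the others. It was 6.59 to 6.89 in untreated mutants and 7.05 to 7.18 in untreated wild types. The part of single mice in the changes of these named genes was not tested.

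Crhr2, the receptor of urocortins, was the gene of this class that the naming rule took. It held 9.79 to 10.44 in untreated wild types and 9.65 to 10.05 in T3-exposed mutants, with overlap. The change was -0.32 (adjusted p = 0.264), beside -0.65 in untreated mutants (adjusted p = 0.0231). The difference between mutant groups did not pass for any of these named genes, with Crhr2 at 0.33 (adjusted p = 0.580), and in the whole class it passed for 1 probe set without a gene name. Some genes of the class lay close to the threshold, with Tie1, a receptor of endothelial cells, at -0.52 (adjusted p = 0.0539) and Lamb2, a laminin chain, at -0.48 (adjusted p = 0.0535).

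Lists of genes by function or cell type were read by their counts and medians. Each count stands against 2.32% of all genes tested that rose and 2.13% that fell, so 1 call in a direction among 35 to 40 genes is near the background. Of 40 genes of the extracellular matrix and activated fibroblasts, 7 rose (Postn, Col1a1, Col3a1, Col5a2, Fn1, Lum, Mmp2) and none fell. The list's median was 0.33 and 34 of the 40 changes were positive. Mmp2, a gelatinase that remodels matrix, held 11.80 to 12.02 in untreated wild types and 12.59 to 13.35 in T3-exposed mutants and rose by 1.15 (adjusted p = 5.38e-05), beside 0.98 in untreated mutants.

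Col1a1, the chain of type I collagen, held 9.46 to 9.69 in untreated wild types and 10.46 to 12.52 in T3-exposed mutants, with mouse 16 highest. It rose by 1.35 (adjusted p = 0.00310), and by 1.05 without mice 16 and 17. Without these mice the matrix list held 4 rises and a median of 0.28. Vim, the filament protein of fibroblasts and other mesenchymal cells, also rose (1.24, adjusted p = 1.74e-04), a gene outside the naming rule.

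Fatty acid genes gave 2 rises and no fall among 35 of uptake and oxidation (median 0.13). Slc27a1, a fatty acid transporter, held 14.15 to 14.79 in untreated wild types and 15.08 to 15.83 in T3-exposed mutants, without overlap. It rose by 0.95 (SE 0.15, adjusted p = 2.02e-04), and by 0.42 in untreated mutants, where it did not pass. Acot1, a thioesterase that releases free fatty acids from their CoA form, rose by 0.98 (adjusted p = 0.00576).

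In fatty acid synthesis and desaturation 2 of 20 genes rose (Scd4, Elovl1) and 2 fell (Fads1, Lpin1), with a median of 0.44. The median was 0.25 to 0.53 without each mouse, and -0.01 against T3-exposed wild types. The list's mean level ran from 9.71 to 10.62 in untreated wild types and from 9.53 to 12.17 in T3-exposed mutants, so the groups overlapped. Mice 49 (12.17) and 51 (11.24) were the highest mutants. Lpin1, a phosphatase that makes diacylglycerol, held 14.61 to 14.99 in untreated wild types and 12.99 to 14.10 in T3-exposed mutants and fell by 1.11 (adjusted p = 0.00124). Of 34 genes of glucose and lactate metabolism, 1 rose (Slc16a7) and 3 fell (Ogdhl, the lactate dehydrogenase Ldhd and the phosphatase Pdp2, which activates pyruvate dehydrogenase), with a median of 0.00.

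The cytosolic ribosomal protein list had the highest median among gene functions, 0.80 over 53 genes, all positive, of which 8 passed. Rpl3 held 11.10 to 11.74 in untreated wild types and 12.01 to 13.06 in T3-exposed mutants, without overlap, and rose by 1.03 (adjusted p = 9.07e-04). The list's mean level was 13.82 in mouse 16 and 13.75 in mouse 17, 12.31 to 12.50 in the other 4 T3-exposed mutants and 11.93 to 12.21 in untreated wild types. High levels were not particular to T3-exposed mutants. The mean was 13.22 in untreated mutant mouse 4, and 13.37 in each of the T3-exposed wild-type mice 14 and 15. Without mice 16 and 17 the median was 0.33 and 1 gene passed.

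Oxidative phosphorylation genes were high in the same mice. The mean level of 76 genes was 14.92 in mouse 16 and 15.15 in mouse 17, 13.85 to 14.02 in the other 4 T3-exposed mutants and 13.87 to 14.18 in untreated wild types. It was 14.78 in untreated mutant mouse 4, and 15.11 and 14.96 in T3-exposed wild-type mice 14 and 15. None of the 76 passed, and the list's median was 0.27 with mice 16 and 17 and -0.11 without them. The 18 clock genes had a median of 0.38 with none passing, and 0.07 without both mice.

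Of 32 interferon response genes, 1 rose (Ifi27) and 4 fell (Ifih1, Rsad2, Gbp3, Cxcl9), with a median of -0.05. Without mice 16 and 17 no gene rose, 3 fell and the median was -0.17. Mouse 16 had a mean level of 7.99 over the list, the other T3-exposed mutants 7.13 to 7.55 and untreated wild types 7.33 to 7.80. In untreated mutants 5 fell and the list's median was -0.42. Cxcl9, a chemokine that draws T cells, held 7.30 to 8.50 in untreated wild types and 5.67 to 7.42 in T3-exposed mutants and fell by 1.26 (adjusted p = 0.0137).

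Sarcomere and fetal genes gave 3 rises and 4 falls of 39, with Myoz2, a protein of the Z-disc, at -0.64 (adjusted p = 0.00380) and Fhl1, a LIM protein, at 0.76. Autophagy genes gave 1 rise (Atg2a, 0.93, adjusted p = 0.00394) and 1 fall (Ulk2, -0.47) of 37. Of 20 genes listed for DNA methylation, the sole gene to pass was Apobec1, the RNA-editing enzyme named above.

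Markers of the cell types a heart sample can hold were read in the same way. No cardiomyocyte marker of 13, no atrial marker of 13 and no immune marker of 26 passed (median 0.01, 0.10 and -0.05). The immune median was -0.18 without mice 16 and 17 and -0.31 in untreated mutants. Mouse 16 had a mean immune marker level of 7.95, the other T3-exposed mutants 6.71 to 7.31 and untreated wild types 7.05 to 7.18. Of 17 endothelial markers, Fabp4 rose and Aqp1, Vwf and Flt1 fell (median -0.24, and -0.03 without mice 16 and 17). Aqp1, a water channel of capillaries, held 13.52 to 14.27 in untreated wild types and 12.35 to 13.38 in T3-exposed mutants and fell by 1.27 (adjusted p = 4.01e-04).

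Of 10 adipocyte markers, Fabp4 and Pparg rose (1.22 and 0.79) and the median was 0.87. Their mean level ran from 7.95 to 9.33 in untreated wild types and from 8.12 to 11.15 in T3-exposed mutants, so the groups overlapped. Of 12 epicardial markers, Msln and Tbx18 rose (median 0.61), and without mice 16 and 17 the median was 0.39 with 1 rise. Of 14 smooth muscle and pericyte markers, Cspg4 and Notch3 rose (median 0.23), and without both mice the median was 0.38 with 1 rise. No marker passed among 11 of skeletal muscle, 9 of neurons, 4 of red blood cells and 8 of lung and thymus. The part of cell makeup in the fat, matrix and endothelial changes was not tested.

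**Figure D4:**
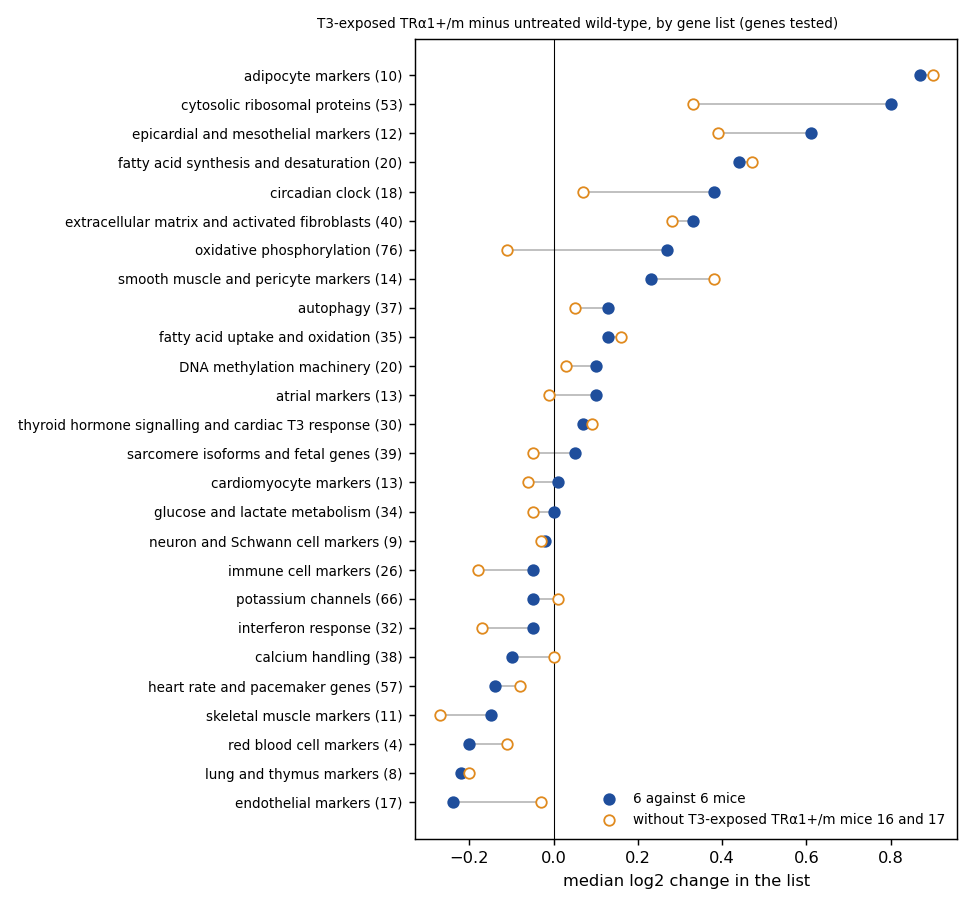
Median log2 change of T3-exposed TRα1+/m minus untreated wild-type hearts in 26 gene lists (x axis), with the number of genes tested after each name. Filled points use all 6 against 6 mice and open points leave out mice 16 and 17. Ribosomal proteins move from 0.80 to 0.33 and oxidative phosphorylation from 0.27 to -0.11, while the matrix list lies at 0.33 and 0.28.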

How the data were processed

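Hearts were profiled on 1-colour mouse arrays from total RNA, 1 array per mouse in 4 groups of 6. The deposited values were log2 signals per probe set, made by the authors with RMA in Transcriptome Analysis Console 4.0.1 per the submitters' processing notes, and were used as deposited. The scaling of RMA acts on all arrays together, and the highest signals lay near the ceiling of the array. The number of mice and of arrays limits the precision.

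Of 28846 probe sets, 6640 controls were left out. The probe set with the highest mean was kept per gene symbol, taken from the platform annotation, which gave 22139 genes and unnamed probe sets. Those with a group mean above 4 were tested (19801, of which 17478 had a symbol). Of the called genes, 4 of 460 higher and 12 of 422 lower had a mean at or below 4 in the lower group of the comparison. Groups came from the labels. One linear model with a mean per group was fitted to all 24 arrays with limma 3.58.1 in R 4.3.3 (lmFit, eBayes), with contrasts between groups. P-values were adjusted by Benjamini-Hochberg across the tested genes, and genes passed at an adjusted p under 0.05. The fit was tested on simulated data. Nothing in the labels says that the mice of a group come from separate litters. The p-values rest on a spread between mice estimated over all 24 arrays, and they take no account of litters. The members and gene lists were chosen with earlier results of these data known. No set test was run.

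Genes were named by rule, being the 15 largest rises and falls with a regular symbol, up to 3 passing genes per direction with the lowest p in each list (or the gene with the lowest p where none passed), genes the study names for the heart, and the 5 lowest p between mutants. This gave 99 genes, of which 78 passed. Alternatives were no filter, a mean above 4 in the groups compared or above 5, trend and robust settings, array weights, centred arrays, only the arrays compared, a minimum change of 1.5-fold, the range of the number in the title (below 20 or above 30) as a term or with the higher range alone, the methods' adjustment without moderated variances, and each mouse left out in turn. Leaving out mice 16 and 17, or mice 4, 14, 15, 16 and 17, was chosen after seeing the data. Promoter sequences came from RefSeq (GRCm38.p6).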

Additional observations from a re-analysis of the deposited data

Results flagged for a closer look

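Of 198 groups of values (the 99 named genes in the 2 groups compared), 11 held a mouse far from the other 5 of its group by Dixon's test. Chance gives about 1 in 20, so the number of flags was near what chance gives. Of the 11, 8 were in T3-exposed TRα1+/m and 3 in untreated wild-type hearts. Mouse 16 was highest for the matrix genes Postn (12.94, next mouse 11.35) and Col1a1 (12.52, next 10.82). Mouse 17 was lowest for Tbx18 (7.55, next 8.09) and Ncam1 (9.08, next 10.49). Mouse 49 was lowest for Rgs2 (9.93, next 10.64), Pdp2 (6.71, next 7.45) and Crhr2 (9.65, next 9.92), and mouse 51 was lowest for Kcnd2 (8.11, next 8.76). Among untreated wild types, mouse 39 was highest for Lgals4 (8.12, next 7.12) and Scd4 (10.09, next 9.41), and mouse 57 was lowest for Scn2b (5.65, next 5.85). Postn and Col1a1 still rose without mouse 16 and mouse 17 (1.84, adjusted p = 2.28e-04, and 1.05, adjusted p = 0.00789, limma). Kcnd2 did not pass when mouse 51 was left out.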

How the results depend on the processing

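The counts against untreated wild types, 460 higher and 422 lower, were 206 and 209 in mice with numbers above 30 alone, 218 and 210 without mice 16 and 17, and 296 to 499 higher and 301 to 464 lower without each mouse in turn. Without moderated variances and with the methods' adjustment they were 452 and 427. Between the mutants, 2 higher and 15 lower became 5 and 27 with trend and robust settings, 5 and 25 with the number range as a term, 0 and 0 with numbers above 30 alone, and 1 and 0 without mice 16 and 17. The higher count was 1 with a mean above 5 and 0 with only the 12 arrays, and the lower count 36 with array weights. Leaving out each mouse gave 0 to 5 higher and 0 to 37 lower. Untreated mutants against untreated wild types (112 and 209) gave 212 and 345 with array weights, 60 and 99 with numbers above 30, 203 and 330 without mice 4, 14, 15, 16 and 17, and 86 to 139 and 145 to 245 without each mouse. Against T3-exposed wild types (224 and 328), numbers above 30 gave 95 and 178, the 12 arrays alone 99 and 175, leaving out the 5 mice 142 higher, and leaving out each mouse 160 to 241 and 239 to 345.

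Remaining genes (259) numbered 120 with numbers above 30 and 187 to 279 without each mouse. Newly passing genes (623) numbered 295 with numbers above 30, 404 with the 12 arrays alone, 188 without mice 16 and 17, 324 without the 5 mice and 367 to 719 without each mouse. Genes no longer passing (62) numbered 185 with array weights, 39 with numbers above 30, 176 with the 12 arrays, 226 without mice 16 and 17, 223 without the 5 mice and 40 to 120 without each mouse. Settings with fewer mice have less power, and the cause of the other shifts was not tested.

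Of the 78 named genes that passed, 75 kept passing with array weights, 77 with trend and robust settings and 78 with centred arrays. With the 12 arrays alone 68 kept passing, and 55 with numbers above 30. Without mice 16 and 17 it was 58, and without the 5 mice 67. Casq1, Cspg4, Hrc, Nppb, Scn4b and Ulk2 passed without mice 16 and 17 but not with numbers above 30. None of the 78 turned sign, but they were chosen in the main fit, which shares mice with each setting, so this is no support. Among leave-one-out fits 1784 of 1872 passed, and 15 genes missed the threshold at least once. Signs turned in 3 genes that did not pass, Alas2 (0.11 with numbers above 30), Nos1ap (0.03 with numbers above 30, 0.06 without mice 16 and 17, 0.06 without the 5 mice, -0.22 to 0.01 without each mouse) and Kcnj14 (-0.17 to 0.03 without each mouse). No paired analysis was possible because the groups share no mouse numbers. Signals near the array's ceiling, such as Myh6 and Atp2a2, limit what can be seen.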
